A study of Mus musculus with 4 samples.

Results

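Fibroblasts of the mouse cheek lining (buccal mucosa) were compared with those of untreated dorsal skin in Xenium in situ data, which count single transcripts of 328 panel genes in place in a tissue section. A cell was taken as a fibroblast where *Pdgfra*, *Col1a1* and *Lum* together had at least 3 transcripts, *Krt5*, *Cd74* and *Pecam1* had none, and the cell held at least 10 transcripts in all. The cells were thus chosen by measured values of these 6 genes, which are described below and were not tested. The rule found 12558 fibroblasts among 104219 cells with at least 10 transcripts in the 10 sections compared. All 4 slides of the series held 426792 such cells. Of the fibroblasts, 4392 lay in 7 buccal sections and 8166 in 3 Control skin sections. A further 37082 lay in 4 PITX1+ skin sections, which are given for reference.

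Fibroblasts build and remodel the collagen-rich matrix beneath an epithelium, and they send and receive growth factors, chemokines and matrix enzymes that act on the cells around them. Those of the back derive from the mesoderm and those of the face largely from the neural crest, and fibroblasts of different sites keep distinct expression patterns in the adult. Wounds of the mouth lining seldom leave a lasting scar, in contrast to those of the back.

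All skin came from TRE-*Pitx1*/*Krt5*-rtTA Tet-On mice, in which doxycycline switches on *Pitx1* under the keratinocyte promoter of *Krt5*. Control animals were littermates that carried the transgenes and received vehicle, as normal chow, and PITX1+ animals received doxycycline. Buccal mucosa was taken from vehicle-treated Control mice of both sexes, with the sex of each section not given. Control 1 and 2 and PITX1+ 1 and 2 lay on the slide of female skin, Control 3 and PITX1+ 3 and 4 on the slide of male skin, and the buccal sections on a slide of their own, so tissue and slide cannot be told apart. Labels name the tissue on a slide and do not say which section had which condition. The condition was taken from the order of the sections, and the count of cells with at least 3 genes in each skin section lay within 0.493% of a section total listed for that condition, while no total listed for a different condition came closer than 9.08%. *Pitx1* itself separated the conditions on the male slide and not on the female one. In cells with at least 3 *Krt5* transcripts it was at 31.2 CPM in Control 3 and at 1250.2 and 977 in PITX1+ 3 and 4, but at 49.3 and 49.6 in Control 1 and 2 and at only 36.5 and 101 in the sections taken as PITX1+ 1 and 2. All 3 Control sections were thus low, and the transgene does not bear out the condition of PITX1+ 1 and 2. These 2 sections enter the estimate of the spread below. Without any PITX1+ section, 101 of 264 genes tested were called different between buccal and Control skin. The labels do not say that sections came from separate animals, so p-values measure the spread between sections.

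The chosen cells were shallower in Control skin. The median number of transcripts per fibroblast was 30 to 37 in the Control sections and 56 to 119 in the buccal sections, and the groups did not overlap. Summed over its fibroblasts, a section held 86749 to 128523 transcripts in Control skin and 10662 to 189625 in buccal mucosa. The chosen fibroblasts made up 12.1%, 24.5% and 25.1% of cells with at least 10 transcripts in Control 1, 2 and 3, and 2.54% to 10.8% (median 5.14%) in buccal mucosa. This share depends on the levels of the genes of the rule, which differed between the tissues, and does not measure tissue content. All levels below are counts per 1e6 panel transcripts (CPM) of the summed fibroblasts of a section, so a gene's level is a share of the panel and not an amount per cell. Buccal 6, with 152 fibroblasts, stood apart: *Krt18*, a keratin of simple epithelium, was at 12005 CPM there against a median of 22.2 over the 7 buccal sections, and the smooth muscle gene *Myh11* was at 13975 against a median of 1201. Buccal 3 had no cell with at least 3 *Krt5* transcripts and the lowest level of several genes described below.

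**Figure D1:**
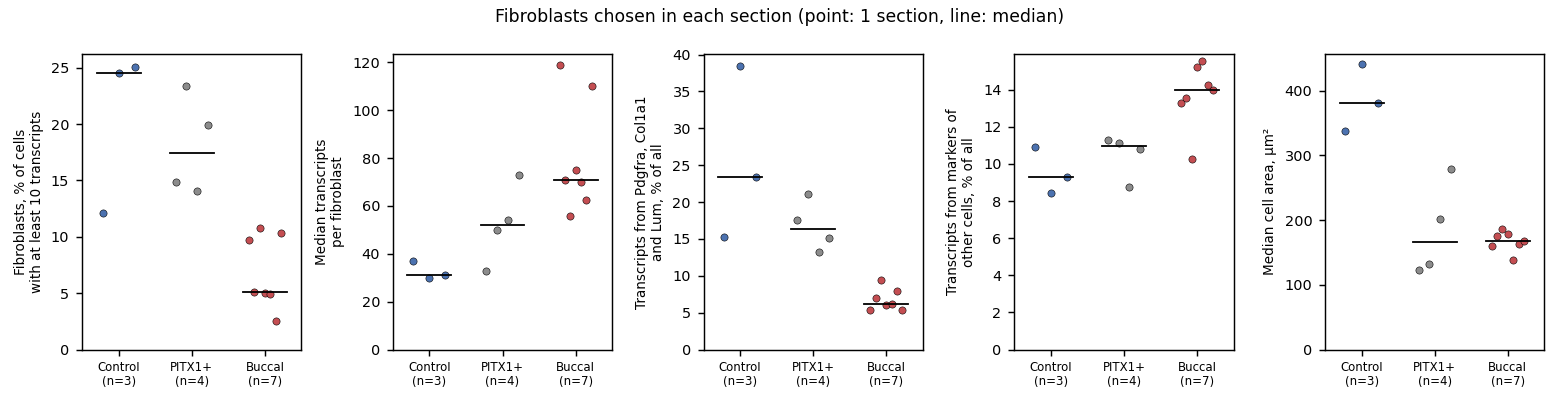
Fibroblasts of each section: their percent of cells, median transcripts per cell, percent of transcripts from the 3 positive genes of the rule, percent from markers of other cells and median cell area in µm². Each point is 1 section and each line a median. The rule chose a smaller share of cells in buccal than in Control sections (at most 10.8% against at least 12.1%). The chosen buccal cells had more transcripts and smaller cell areas than the Control ones.

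The genes that chose the cells differed in make-up between the tissues. *Col1a1*, which encodes a chain of type I collagen, was at 127056, 375909 and 212981 CPM in Control 1, 2 and 3 and between 22624 and 57131 (median 27909) in buccal fibroblasts. *Lum*, a proteoglycan that spaces collagen fibrils, was at 3355, 2013 and 12286 CPM in Control skin and between 13024 and 24660.3 (median 16271) in buccal mucosa. *Pdgfra*, the receptor for PDGF-A that marks most fibroblasts, was at 22490.2, 6151 and 9212 CPM in Control skin and between 12357 and 20683 (median 17292) in buccal mucosa. *Col1a1* was thus lower and *Lum* higher in every buccal section than in every Control section, while *Pdgfra* overlapped. The 3 genes together gave 15.3% to 38.4% of transcripts in Control fibroblasts and 5.40% to 9.41% in buccal ones. At the threshold itself, cells with exactly 3 of these transcripts were 11.1% to 27.6% of the chosen cells in a Control section, with a median of 19 to 29 transcripts in all, and 18.4% to 35.7% in a buccal section, with a median of 41.5 to 81. Cells just outside, with 2, had medians of 19.5 to 25 and 37.5 to 75.5 transcripts.

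Markers that the rule did not use were checked next. All 13 other fibroblast markers, among them *Tnxb*, *Col5a1*, *Col6a1* and *Mmp2*, had a higher median CPM in the chosen cells than in the remaining cells of the same sections, in Control skin and in buccal mucosa. Together these 13 genes reached 86305 to 157225 CPM in Control fibroblasts and 141906 to 194867 in buccal ones. The rule genes took 15.3% to 38.4% of transcripts in Control and 5.40% to 9.41% in buccal fibroblasts, which lowers the Control sums more. These ranges therefore do not show richer fibroblast markers in buccal cells. Of the 13, *Col14a1*, *Abca8a* and *Angptl1* were higher in buccal fibroblasts, *Lrp1* was lower and 9 did not pass the test, where 13.6% of all genes tested were higher and 29.0% lower. Their median log2 fold change was 0.44, beside -0.40 for all genes tested. A level above the remaining cells was not particular to fibroblast markers. In buccal mucosa it was found for 5 of 5 Schwann cell, 3 of 5 muscle and pericyte, 9 of 20 immune and 1 of 7 endothelial markers. It was found there for 0 of 30 keratinocyte and 0 of 4 salivary and simple epithelial markers. In Control skin these counts were 2, 3, 2, 2, 1 and 0 in the same order, where the larger share of the rule genes lowers the CPM of every other gene in the chosen cells.

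The sums were compared between sections by the quasi-likelihood test of edgeR, and p-values were adjusted over all 317 genes by the Benjamini-Hochberg method, as were all adjusted p-values of genes below. At 0.05, 43 genes were higher in buccal than in Control skin fibroblasts (13.6% of genes tested) and 92 were lower (29.0%), 135 in all (42.6%). The sections of the tissues did not overlap in CPM for 84 of the 317 genes (26.5%). The median log2 fold change of all genes was -0.40 with TMM scaling, -0.53 with the size factors of DESeq2 and -0.17 without TMM, where 50 genes were higher and 74 lower. It also moved to -0.071 without PITX1+ 1, -0.061 without PITX1+ 2, -0.10 without Buccal 2 and 0.041 with transcripts of any quality score, so it is a loose reference for the medians of lists below. A change of the same size as the median is therefore no departure from the panel as a whole. With transcripts of any quality score, 60 genes were higher and 60 lower. With the slide as a random block (limma's voom, correlation 0.69), no gene passed the adjusted threshold and 42 had an unadjusted p below 0.05. Without Control 1 the count of changed genes was 76, and without Control 2 it was 73.

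Each changed gene was also set against the remaining cells of its sections. Of the 43 higher genes, 30 were neither in a list of markers of other cells nor lower in the chosen cells than in the remaining cells of the buccal sections. Of the 92 lower genes, 27 were markers of other cells and a further 46 had a level in Control fibroblasts at or below that of the remaining cells of those sections, which leaves 19. The positive genes of the rule took 15.3% to 38.4% of transcripts in Control fibroblasts and 5.40% to 9.41% in buccal ones. This lowers the CPM of every other gene more in Control fibroblasts, and with it the ratio to the remaining cells. The filter thus removed genes high in Control skin more readily, and it was not repeated with the rule genes left out. The 46 are therefore not shown to be genes of other cells, and ratios below 1 in Control skin given below carry the same limit. The share of all genes above the remaining cells is not given, so the 30 and 19 are not compared with each other. The genes named next are those of the 30 and 19 whose buccal and Control sections do not overlap: the 12 with the largest change among 24 higher ones, and all 6 lower ones. When the 6 genes of the rule were left out of the total behind CPM, a setting added after the data were seen, 93 of all genes tested and 17 of these 18 did not overlap, the exception being *Bmp4*.

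**Figure D2:**
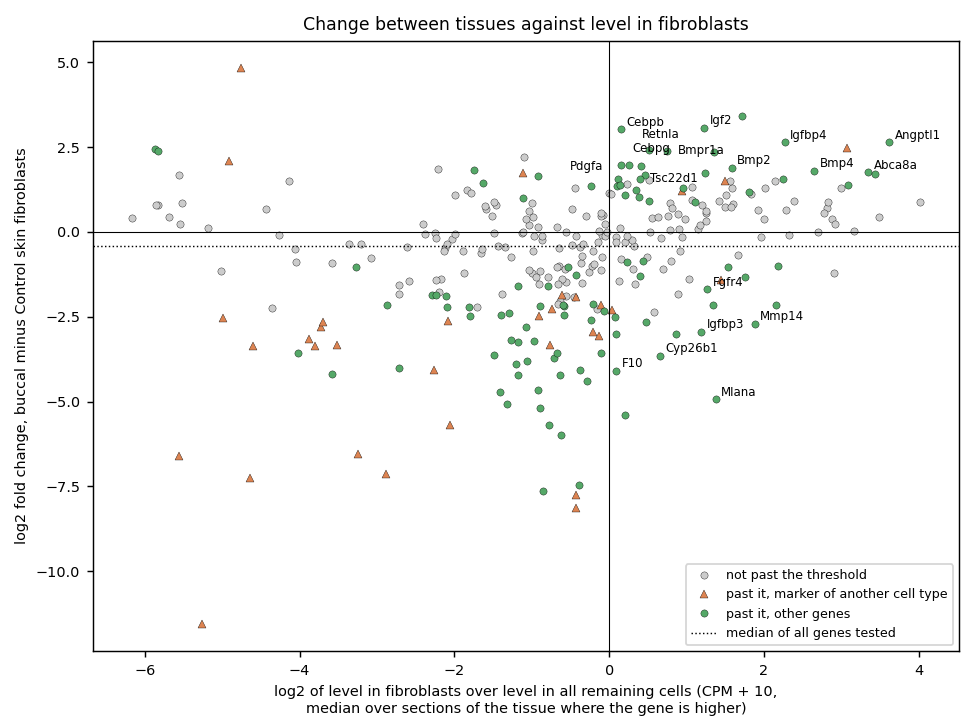
Each point is 1 of the 317 genes tested, with the log2 fold change of buccal minus Control skin fibroblasts (y axis) against the log2 ratio of the level in fibroblasts to that in all remaining cells (x axis, CPM + 10, medians over sections of the tissue where the gene is higher). The 18 named genes lie right of 0 because their choice required it, and the largest decreases, many of them markers of other cells, lie left of it. The dotted line is the median of all genes, -0.40.

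Among genes of insulin-like growth factor (IGF) signalling, *Igf2*, *Igfbp4* and *Igf2r* were higher in buccal fibroblasts and *Igfbp3* and *Igfbp2* lower. IGFs are growth signals that the IGF-binding proteins (IGFBPs) hold in the tissue, release or keep from their receptor. *Igf2*, which encodes a ligand best known from fetal growth, was at 669, 301 and 428 CPM in Control 1, 2 and 3 and between 1765 and 5595 (median 4959.5) in buccal mucosa. Every buccal section lay above every Control section, with Buccal 3 the lowest. The log2 fold change was 3.06 (SE 0.51, edgeR adjusted p = 0.000603). In buccal mucosa the median of *Igf2* was 2.35 times that of the remaining cells, and in Control skin it was 0.661 times. After each cell with at least 20 transcripts was thinned to 20, 8.11% ± 2.97 (SD, n = 7) of buccal and 0.944% ± 0.382 (SD, n = 3) of Control fibroblasts held an *Igf2* transcript (25.1% and 1.68% before thinning). Thinning left out 59 buccal and 1922 Control cells.

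*Igfbp4*, a binding protein that restrains IGF action, was at 1994, 837 and 1867 CPM in Control skin and between 9463 and 12849 (median 11431) in buccal mucosa. Again no section overlapped. The log2 fold change was 2.64 (SE 0.37, edgeR adjusted p = 0.000161), and 20.6% ± 2.01 (SD, n = 7) of thinned buccal cells held a transcript against 2.85% ± 1.18 (SD, n = 3) of Control cells (50.9% and 5.11% before thinning). *Igfbp3*, the main carrier of IGFs in serum, was at 11458, 12265 and 16534 CPM in Control skin and between 1032 and 2518 (median 2321) in buccal mucosa. All 3 Control sections lay above all buccal sections (log2 fold change -2.95, SE 0.31, edgeR adjusted p = 1.36e-05). *Igfbp3* was 2.28 times as high in Control fibroblasts as in the remaining cells of Control skin, and 0.749 times as high in buccal ones as in the remaining buccal cells.

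*Igf2r*, which takes up and clears IGF2, had a log2 fold change of 1.31 (SE 0.49, edgeR adjusted p = 0.0435). *Igfbp2* was at 9095 and 5465 CPM in Control 1 and 2 but at 373 in Control 3, within the buccal range of 53.5 to 1202 (log2 fold change -3.001, SE 0.77, edgeR adjusted p = 0.0084). *Igf2r* and *Igfbp2* were singled out after their values were seen, as were the other members below that are named to spell out a short count. *Igf1*, the ligand made by many fibroblasts, was at 5891, 1787 and 3953 CPM in Control skin and between 3689 and 8345 (median 5368) in buccal mucosa, with overlap, and did not pass the test (log2 fold change 0.37, SE 0.32, edgeR adjusted p = 0.373). Counted over the nucleus only, *Igf1* did pass, with a log2 fold change of 1.21 (edgeR adjusted p = 0.0135). *Igfbp5* was at 39436, 35929 and 12729 CPM in Control skin and between 20220.4 and 80385 (median 65741) in buccal mucosa and did not pass either (log2 fold change 0.83, SE 0.45, edgeR adjusted p = 0.152). It passed over the nucleus only (log2 fold change 1.64, edgeR adjusted p = 0.0118) and without Buccal 3 (0.99, edgeR adjusted p = 0.0482), while other choices of cells turned its sign. Of the 10 genes of this axis, 5 were called, 3 higher and 2 lower, which is close to the 42.6% of all genes called, with a median log2 fold change of 0.56 beside -0.40 for all genes.

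Bone morphogenetic proteins (BMPs) are secreted ligands of the TGF-beta family that pattern skin, hair and teeth, and act through paired type I and type II receptors. The list of 12 TGF-beta and BMP genes held ligands, receptors and others such as *Id3*. Of these 12, *Bmp2*, *Bmp4*, *Tgfb3*, *Bmpr1a* and *Bmpr2* were higher in buccal fibroblasts, *Bmp7* was lower and 6 did not pass, where 13.6% of all genes were higher and 29.0% lower. The median log2 fold change of the list was 0.76 beside -0.40 for all genes. *Bmp4* was at 1291, 790.1 and 1245 CPM in Control 1, 2 and 3 and between 1337 and 6139.9 (median 5542) in buccal mucosa. The buccal sections lay above the Control sections by a narrow margin at Buccal 3, which was lost when the genes of the rule were left out of the total (1476 CPM in Buccal 3 against 1524 and 1626 in Control 1 and 3) (log2 fold change 1.80, SE 0.61, edgeR adjusted p = 0.0303). *Bmp2* was at 484, 122 and 218 CPM in Control skin and between 657 and 1511 (median 1200.4) in buccal mucosa, with Buccal 6 the lowest (log2 fold change 1.88, SE 0.52, edgeR adjusted p = 0.0127). The ratio of the level in fibroblasts to that in the remaining cells, which the choice of named genes used, was 6.33 in buccal mucosa and 1.87 in Control skin for *Bmp4*, and 3.05 and 0.272 for *Bmp2*.

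*Bmpr1a*, a type I BMP receptor, was at 438, 226 and 1338 CPM in Control skin and between 3869.8 and 4767 (median 4439.9) in buccal mucosa, so that the male Control section lay well above both female ones and below every buccal section (log2 fold change 2.40, SE 0.73, edgeR adjusted p = 0.0205). The type II receptor *Bmpr2* had a log2 fold change of 0.92 (SE 0.27, edgeR adjusted p = 0.0164) and *Tgfb3*, a TGF-beta ligand, one of 1.18 (SE 0.29, edgeR adjusted p = 0.00668), both without overlap. *Bmp7* rested on levels of 140.1 to 207 CPM in Control skin (log2 fold change -2.33, edgeR adjusted p = 0.0262).

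The other genes among the 12 named increases encode secreted factors, a lipid transporter and regulators of transcription. *Angptl1*, an angiopoietin-like secreted protein, was at 2847, 2013 and 1292 CPM in Control 1, 2 and 3 and between 4596 and 19930.5 (median 16123) in buccal mucosa, with Buccal 6 the lowest and Buccal 3 next (log2 fold change 2.64, SE 0.54, edgeR adjusted p = 0.002). It was 12.3 times as high in buccal fibroblasts as in the remaining buccal cells. *Abca8a*, a transporter of the ABC family, was at 6398, 3038 and 5019 CPM in Control skin and between 14034 and 22707 (median 18188) in buccal mucosa (log2 fold change 1.75, SE 0.43, edgeR adjusted p = 0.00656), and 10.2 times as high in buccal fibroblasts as in the remaining cells. *Pdgfa*, the ligand of PDGFRA, was at 438, 292 and 381 CPM in Control skin and between 1379 and 2193 (median 1513) in buccal mucosa (log2 fold change 1.97, SE 0.36, edgeR adjusted p = 0.000993). No section overlapped for these 3 genes, but *Pdgfa* was only 1.11 times as high in buccal fibroblasts as in the remaining cells.

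For *Cebpb*, *Cebpg* and *Tsc22d1*, the male skin sections lay above the female ones in Control and in PITX1+ skin. *Cebpb*, a leucine zipper transcription factor of inflammation and fat cell formation, was at 34.6 and 18.8 CPM in the female Control sections and at 545 in the male one, against 1340.1 to 2601 (median 2345) in buccal mucosa (log2 fold change 3.03, SE 1.09, edgeR adjusted p = 0.0373). In PITX1+ skin it was at 123 and 78.2 CPM on the female slide and 1357 and 1247 on the male slide, so the slides of skin were separate for this gene in both conditions. *Tsc22d1*, a leucine zipper gene induced by TGF-beta, was at 888 and 687 CPM in female and 3136 in male Control skin and between 6302 and 8933 (median 7662) in buccal mucosa (log2 fold change 1.94, SE 0.63, edgeR adjusted p = 0.0251). *Cebpg*, a partner of CEBPB, was at 553, 179 and 903 CPM in Control skin and between 2291 and 3173 (median 2499.7) in buccal mucosa (log2 fold change 1.99, SE 0.57, edgeR adjusted p = 0.0149). *Retnla*, a resistin-like secreted protein, was at 738, 37.6 and 444 CPM in Control skin and between 1651 and 3370.1 (median 2335) in buccal mucosa (log2 fold change 2.41, SE 0.87, edgeR adjusted p = 0.0385). The ratio to the remaining cells was 1.12 to 1.44 in buccal mucosa, where the choice of these 4 genes required it to be above 1, and below 1 in Control skin (0.334 for *Cebpb*, 0.818 for *Tsc22d1*, 0.85 for *Cebpg* and 0.544 for *Retnla*).

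Of the 6 named genes lower in buccal fibroblasts, *Mmp14* and *Cyp26b1* stood out with *Igfbp3* by their levels in Control skin. *Mmp14* encodes a matrix metalloproteinase anchored in the cell membrane that cuts collagen and activates MMP2. It was at 20888, 40754 and 21420.3 CPM in Control 1, 2 and 3 and between 3536 and 7756 (median 5128) in buccal mucosa, with no overlap (log2 fold change -2.71, SE 0.31, edgeR adjusted p = 2.82e-05). A transcript was found in 39.7% ± 10.7 (SD, n = 3) of thinned Control and 10.9% ± 4.24 (SD, n = 7) of thinned buccal fibroblasts (52.4% and 33.2% before thinning). *Cyp26b1*, an enzyme that degrades retinoic acid, was at 10905, 5455 and 2069.7 CPM in Control skin and between 93.8 and 889.6 (median 496) in buccal mucosa. The Control sections themselves spread widely, with the male section the lowest, and all lay above the buccal range (log2 fold change -3.66, SE 0.56, edgeR adjusted p = 0.000343). *Cyp26b1* was 1.57 times as high in Control fibroblasts as in the remaining cells of Control skin.

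The other 3 lower genes were sparse. *Mlana*, known as an antigen of pigment cells, was between 299.7 and 658 CPM in the 3 sections of Control skin and at most 73.8 in buccal mucosa, where 3 sections had none (log2 fold change -4.94, SE 0.79, edgeR adjusted p = 0.000546). It was 2.68 times as high in the chosen Control cells as in the remaining ones, and the lists of markers of other cells held no other gene of pigment cells against which to set it. *F10*, which encodes coagulation factor X, was at 288, 235 and 85.6 CPM in Control skin and at most 53.5 in buccal mucosa (log2 fold change -4.10, SE 0.89, edgeR adjusted p = 0.00331), and *Fgfr4*, an FGF receptor, was at 634, 395 and 630.2 CPM against 53.5 to 334 (log2 fold change -1.69, SE 0.52, edgeR adjusted p = 0.0205).

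**Figure D3:**
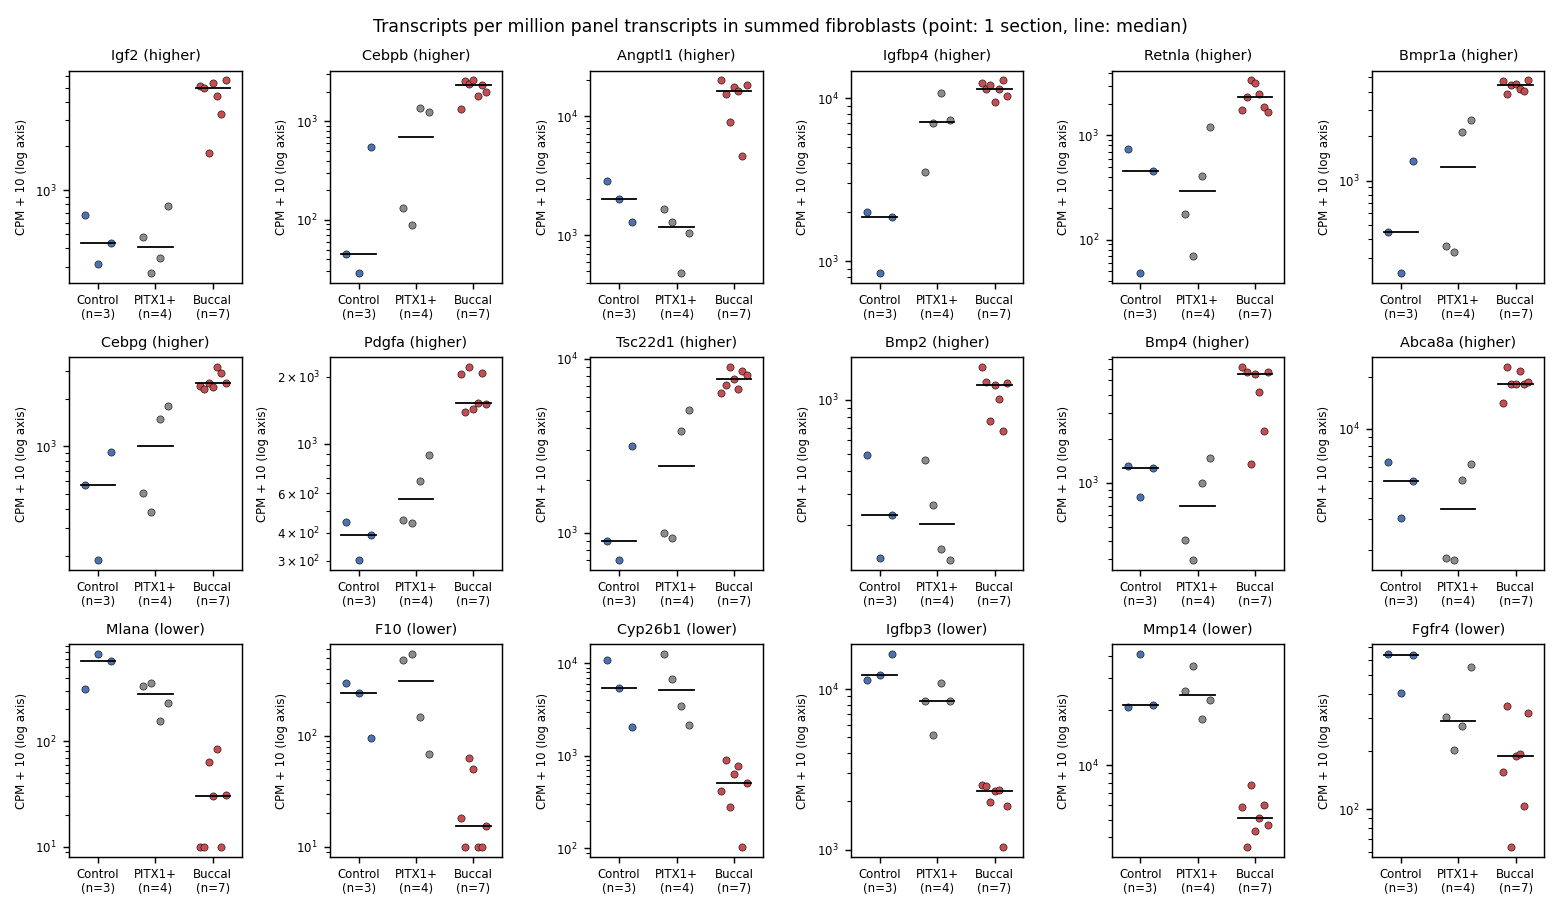
Level of each of the 18 named genes in the summed fibroblasts of every section (CPM + 10, log axis). Each point is 1 section and each line the median of 3 Control, 4 PITX1+ or 7 buccal sections. Buccal and Control points do not overlap in any panel, as the rule for naming required, and in *Bmpr1a* and *Tsc22d1* the male skin sections (Control 3 and PITX1+ 3 and 4) lie between the female skin sections and the buccal ones.

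Leaving out single sections divided these 18 genes. The call held without any one section for *Igf2*, *Igfbp4*, *Angptl1*, *Pdgfa*, *Abca8a*, *Mlana*, *F10*, *Cyp26b1*, *Igfbp3* and *Mmp14*. It was lost for *Cebpb*, *Retnla*, *Bmpr1a*, *Cebpg*, *Tsc22d1* and *Bmp4* without Control 1, and for these 6 and *Bmp2* without Control 2. The call of *Retnla* and *Fgfr4* was also lost without Control 3, that of *Cebpb* without Buccal 2, 4, 6 or 7, that of *Bmp4* without Buccal 1 or 7 and that of *Retnla* without Buccal 4 or 5. Among PITX1+ sections, which share the estimate of the spread, leaving out PITX1+ 3 ended the calls of *Cebpb*, *Retnla*, *Tsc22d1* and *Bmp4*, and leaving out PITX1+ 1 or 2 that of *Fgfr4*. Of the further genes whose values are given above or below, *Tgfb3*, *Itgb1*, *Itgb3*, *Itgb4*, *Rxra*, *Ccr1*, *Ptn* and *Igfbp2* also held without any one section. In cells with 10 to 50 transcripts, however, *Tgfb3*, *Itgb1*, *Itgb4* and *Ccr1* lost the call, and across all alternatives the log2 fold change of *Itgb1* went as low as 0.093. Over the nucleus only, *Rxra*, *Itgb3* and *Igfbp2* lost it, and across all alternatives the log2 fold change of *Rxra* reached -0.38. Without other-cell transcripts, *Itgb3*, *Igfbp2*, *Tgfb3*, *Itgb1* and *Itgb4* lost it. *Bmpr2* lost the call in cells with 10 to 50 and with at least 20 transcripts. Across all alternatives its log2 fold change went as low as 0.030, while that of *Fn1* reached -0.018 and that of *Sdc1* -0.074. The calls of *Igf2r*, *Bmpr2*, *Bmp7*, *Col14a1*, *Fn1*, *Timp3*, *Adam10*, *Mmp12*, *Icam1*, *Aldh1a3*, *Crabp2*, *Rora*, *Sdc4*, *Sdc1* and *Dkk2* were lost without Control 1 and also without Control 2, most of them without other sections too. Those of *Il1r1* and *Angptl4* were lost without Control 1 or Buccal 2, that of *Ccl8* without Control 3 or Buccal 2 and that of *Il1rap* without Control 2, Control 3 and several others. Depth differed between the tissues, and some calls were lost in cells chosen by depth, which are fewer (57 to 162 buccal cells per section with 10 to 50 transcripts). In cells with 10 to 50 transcripts, 7 of 17 named genes that could be tested lost the call, *Cebpb*, *Retnla*, *Cebpg*, *Tsc22d1*, *Bmp2*, *Bmp4* and *Fgfr4*, and in cells with at least 20 transcripts 4 lost it, *Cebpb*, *Retnla*, *Tsc22d1* and *Bmp4*. Over all alternatives the lowest log2 fold change was 2.08 for *Cebpb*, 1.89 for *Retnla*, 1.49 for *Cebpg*, 1.37 for *Tsc22d1*, 1.51 for *Bmp2* and 1.22 for *Bmp4*. In cells without a single transcript of the markers of other cells (6 to 45 buccal cells per section), 12 of the 18 genes could be tested. All 12 kept their direction, and *Igf2*, *Igfbp4*, *Cyp26b1*, *Igfbp3* and *Mmp14* passed the threshold.

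**Figure D4:**
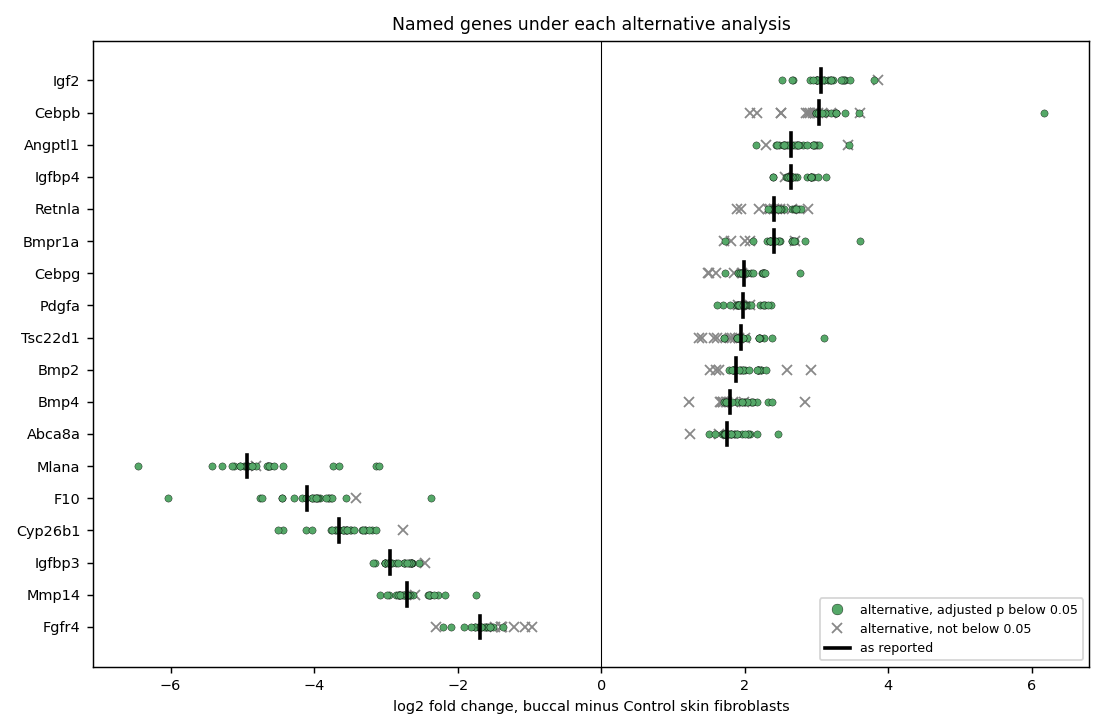
Log2 fold change of the 18 named genes, buccal minus Control skin fibroblasts, as reported (black bar) and under each alternative analysis (green point: adjusted p below 0.05, grey cross: not below it). No gene changes sign. *Igf2*, *Igfbp4*, *Mlana*, *F10*, *Cyp26b1*, *Igfbp3* and *Mmp14* miss the threshold only with the slide as a random block.

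Of 13 matrix proteins that the rule did not use, only *Col14a1* was higher and only *Fn1* was lower by the test, where 42.6% of all genes were called, and their median log2 fold change was -0.08. *Col14a1*, a collagen that binds fibril surfaces, was at 2997, 1176 and 6621 CPM in Control skin and between 5831 and 17713 (median 16465) in buccal mucosa, where Buccal 3 alone lay within the Control range (log2 fold change 1.72, SE 0.56, edgeR adjusted p = 0.0259). *Fn1*, fibronectin, was at 66191, 29646 and 17304 CPM in Control skin and between 16833 and 25042 in buccal mucosa, with overlap (log2 fold change -1.004, SE 0.34, edgeR adjusted p = 0.0303). Among 8 proteases and inhibitors, the metalloproteinase inhibitor *Timp3* was higher (11184 to 20915 CPM against 2323 to 4902, log2 fold change 1.74, SE 0.53, edgeR adjusted p = 0.0208) and so was the sheddase *Adam10* (log2 fold change 1.56, edgeR adjusted p = 0.0331). *Mmp14* and *Mmp12* were lower, the latter at 599, 273 and 31.1 CPM in Control skin and at most 40 in buccal mucosa, and the median of the list was -0.61.

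Of 28 chemokines, cytokines and receptors tested, 14 were lower in buccal fibroblasts and none was higher, where 29.0% of all genes were lower and 13.6% higher. Their median log2 fold change was -1.30 beside -0.40 for all genes. *Il1r1*, the interleukin-1 receptor, was at 8035, 2342 and 3330.1 CPM in Control skin and between 963 and 3001 (median 2157) in buccal mucosa, with overlap (log2 fold change -1.29, SE 0.35, edgeR adjusted p = 0.0122). Its co-receptor *Il1rap* was at 842, 1260.3 and 1120.4 CPM and between 600.2 and 1125 (log2 fold change -0.90, SE 0.31, edgeR adjusted p = 0.0331). *Icam1*, an adhesion molecule for leukocytes, had a log2 fold change of -0.87 (edgeR adjusted p = 0.0227). *Ccl8*, a monocyte chemokine, was at 7975 CPM in Control 3 and at 772 and 433 in Control 1 and 2, within the buccal range of 160.5 to 1440.5, and its log2 fold change of -2.50 (edgeR adjusted p = 0.0251) was 0.094 without Control 3. *Ccr1*, a chemokine receptor of myeloid cells, was at 553, 319.8 and 156 CPM in Control skin and at most 120.0 in buccal mucosa (log2 fold change -2.59, edgeR adjusted p = 0.00806), but at 0.843 times the CPM of the remaining Control cells. The share of the rule genes lowers this ratio, which was not computed without them, so it does not place *Ccr1* below the remaining cells.

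Immune markers moved with this group of genes. Of 20 immune markers other than *Cd74*, 12 were lower in buccal fibroblasts and none was higher, beside 29.0% and 13.6% of all genes (median log2 fold change -2.18). Together they stood at 16667 to 39736 CPM in Control fibroblasts and 6405 to 16789 in buccal ones, and none was at 0 in all sections of either tissue. Their median sum was above that of the remaining cells in buccal mucosa (11364 against 8823 CPM) and below it in Control skin (28911 against 41696), where the share of the rule genes lowers the sum in the chosen cells more. Their part in the lower chemokine and receptor levels was not tested.

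Of 7 genes of retinoid handling, 4 were lower, *Rora* was higher and 2 did not pass, where 29.0% of all genes were lower. Their median log2 fold change was -1.59 beside -0.40 for all genes. *Rxra*, the common partner of retinoid receptors, was at 5383, 5756 and 8893 CPM in Control skin and between 2079 and 3638 (median 2532) in buccal mucosa (log2 fold change -1.59, SE 0.29, edgeR adjusted p = 0.000993), but it was 0.442 times as high in Control fibroblasts as in the remaining cells of Control skin. *Aldh1a3*, which makes retinoic acid, and *Crabp2*, which carries it, had log2 fold changes of -2.18 and -2.16 (edgeR adjusted p = 0.0448 and 0.0244). Both were lower in CPM in fibroblasts than in the remaining Control cells, a contrast that the share of the rule genes enlarges. *Rora*, an orphan nuclear receptor, had a log2 fold change of 1.68 (edgeR adjusted p = 0.0413).

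Among heparin-binding growth factors and syndecans, *Ptn* and *Sdc4* were higher and *Sdc1* lower, and 3 did not pass, where 42.6% of all genes were called (median log2 fold change 0.48). *Ptn*, the growth factor pleiotrophin, was at 761, 282 and 249 CPM in Control skin. Buccal 6 was at 469 CPM, within the Control range, while the highest buccal section reached 7006 and the median was 5242 (log2 fold change 3.42, SE 0.69, edgeR adjusted p = 0.00193). *Ptn* was 3.3 times as high in buccal fibroblasts as in the remaining buccal cells and 0.0961 times as high in Control fibroblasts as in the remaining Control cells. *Sdc4* and *Sdc1*, heparan sulfate carriers of the cell surface, had log2 fold changes of 1.38 and -1.03 (edgeR adjusted p = 0.0273 and 0.0451).

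Of 9 integrins, which tie cells to the matrix, *Itga1*, *Itgb1*, *Itgb4* and *Itgb6* were higher and *Itgb3* lower, where 13.6% of all genes were higher and 29.0% lower (median log2 fold change 0.61). *Itgb1*, the shared beta chain of collagen and fibronectin receptors, was at 9787, 6904 and 7889.6 CPM in Control skin and between 15390.1 and 21825 (median 17677) in buccal mucosa without overlap (log2 fold change 0.89, SE 0.21, edgeR adjusted p = 0.00531). *Itgb4*, a chain of epithelial hemidesmosomes, was higher too (log2 fold change 1.64, edgeR adjusted p = 0.00398) but at 0.526 times the level of the remaining buccal cells. *Itgb3* was at 3343, 2634 and 1416 CPM in Control skin and between 844 and 1579 in buccal mucosa (log2 fold change -1.32, SE 0.30, edgeR adjusted p = 0.00442). In the angiopoietin-like family of 3, *Angptl4*, a blocker of lipoprotein lipase, went the other way from *Angptl1*: it was at most 216 CPM in all buccal sections but Buccal 3, which reached 2193, against 3769.5, 1589.5 and 1105 in Control skin (log2 fold change -2.64, SE 0.81, edgeR adjusted p = 0.0208). *Angptl2* lay at the threshold: it did not pass here (log2 fold change 1.31, edgeR adjusted p = 0.0581), but passed in 9 of 28 alternatives, among them DESeq2, no TMM and the fit without Control 3 (log2 fold change 2.20, adjusted p = 0.00748).

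*Ptch1*, receptor and target of the pathway, was at 1798, 1006 and 459 CPM in Control skin and between 828 and 2139.7 (median 1045) in buccal mucosa (log2 fold change 0.00, SE 0.44, edgeR adjusted p = 0.996). The ligand *Shh* had no transcript in the 4392 pooled buccal fibroblasts, which allows up to 0.0683% of cells with a transcript, and 31 transcripts in the pooled Control fibroblasts. By the limit of 3 transcripts over the group it was at least 14.9-fold lower. Both limits cover counting error only and not the spread between sections. Of 16 WNT and hedgehog genes, *Dkk2*, a WNT inhibitor, was higher (log2 fold change 1.38, edgeR adjusted p = 0.0454), *Wnt7a*, *Fzd5* and *Shh* were lower and 12 did not pass, where 42.6% of all genes were called (median -0.11). The levels of *Wnt7a*, *Fzd5* and *Shh* in Control fibroblasts were not above those of the remaining Control cells. None of them is therefore among the 6 named lower genes.

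The counts of the remaining lists stand against 13.6% higher and 29.0% lower among all genes. In Control skin, 4 of 12 PDGF, FGF and EGF genes and 1 of 6 lipid genes lay above the remaining cells in the chosen ones. So did 0 of 8 ephrins and receptors, 0 of 7 immediate early and stress genes and 0 of 10 cell cycle genes. Of 12 PDGF, FGF and EGF genes, *Pdgfa*, *Fgf2* and *Erbb3* were higher and *Fgfr2*, *Fgfr4* and *Areg* lower (median log2 fold change -0.36). The call of *Fgf2* was lost without Control 2 and that of *Erbb3* without Control 1, 2 or 3. That of *Fgfr2* held in 11 of 28 alternatives, over which its log2 fold change reached -0.105. Of 8 ephrins and their receptors, *Efna3*, *Efna4* and *Epha4* were lower and 5 did not pass (median -1.25). Of 7 immediate early and stress genes, *Cebpb* was higher and *Atf3* lower (median 0.38). Of 10 cell cycle genes, *Top2a* and *Cenpf* were lower (median -0.88), and of 6 lipid genes *Ppara* was higher and *Fabp5* lower (median -0.16). The calls of *Cenpf*, *Ppara* and *Fabp5* were lost without Control 1 and also without Control 2. Those of *Cenpf* and *Fabp5* were lost without Buccal 2 and other sections too. None of *Areg*, *Efna3*, *Efna4*, *Epha4*, *Atf3* and *Top2a* lost the call when any one section was left out.

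**Figure D5:**
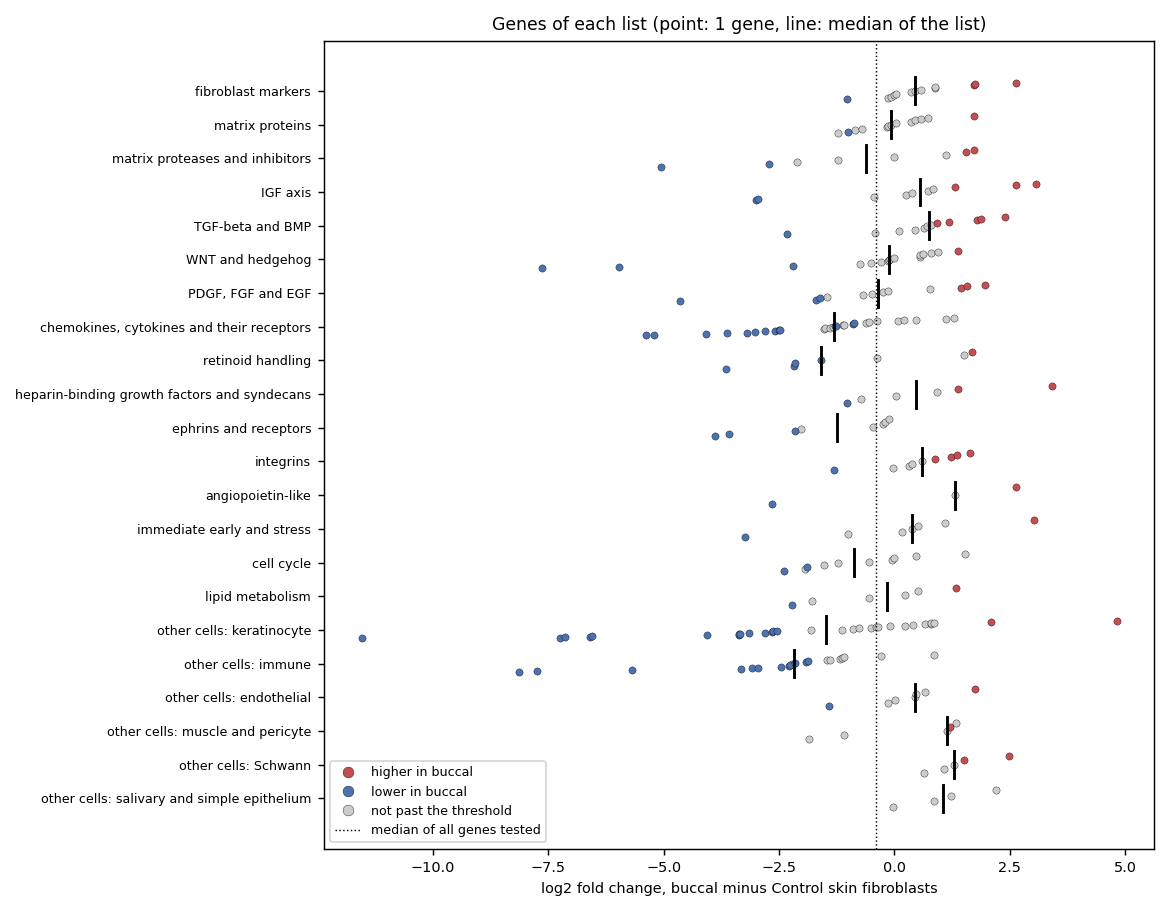
Log2 fold change, buccal minus Control skin fibroblasts, of each gene in each list. Red points are higher and blue points lower in buccal fibroblasts by edgeR, grey points did not pass, black lines are list medians and the dotted line is the median of all 317 genes (-0.40). The TGF-beta and BMP list has 5 red points and 1 blue, and the chemokine and cytokine list has 14 blue points and no red.

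Markers of other cells were present in the chosen cells of both tissues. Of 30 keratinocyte markers other than *Krt5*, 14 were lower and *Krt4* and *Krt6a* were higher in buccal fibroblasts, and *Krt77* was at 0 in all buccal sections. Of all genes, 29.0% were lower and 13.6% higher, against which the counts of this paragraph stand. The sum of the keratinocyte markers was 6730 to 23749 CPM in Control and 5296 to 10441 in buccal fibroblasts, against medians of 259807 and 318022 in the remaining cells. Of 5 muscle and pericyte markers only *Abcc9* passed, but their sum was 35007 to 48047 CPM in Control and 62747 to 112436 in buccal fibroblasts, carried by the muscle filament gene *Des* (16648 to 35620.0 and 34703 to 107234). The highest buccal *Des* level exceeded that of the 3 positive genes of the rule together in any buccal section (at most 9.41% of transcripts). What part of the chosen buccal cells is muscle or pericyte was not tested. Of 5 Schwann cell markers *Scn7a* and *Ncam1* were higher (sums of 3132 to 5476 CPM in Control and 10411 to 15643 in buccal fibroblasts). In buccal mucosa the median sum of Schwann cell markers was above that of the remaining cells (13164 against 2741 CPM). So was that of muscle and pericyte markers (101926 against 51424), while that of endothelial markers was below it (6249 against 10703). In Control skin these sums were below those of the remaining cells in CPM (3136 against 3723, 37744 against 56862 and 5571 against 7501). The share of the rule genes lowers the sums in the chosen Control cells more, and they were not recomputed without these genes. For Schwann cell markers, where the sums lie close, this shows no difference between the tissues. Of 7 endothelial markers other than *Pecam1*, *Adgrl4* was higher and *Ackr1* lower (sums of 4675 to 6870.4 and 5962 to 8024 CPM), and none of the 4 salivary and simple epithelial markers passed (77.8 to 2052 CPM in Control and 24.4 to 23729 in buccal fibroblasts). The calls of *Adgrl4*, *Abcc9* and *Scn7a* were lost without Control 1 and also without Control 2, and that of *Ncam1* without Control 2. That of *Ackr1* held in 7 of 27 alternatives and was lost without Control 1, 2 or 3. Those of *Krt4* and *Krt6a* held without any one section. Apart from *Krt77*, no marker of these 5 lists was at 0 in all sections of either tissue. All other-cell markers together gave 8.43% to 10.9% of transcripts in Control and 10.3% to 15.6% in buccal fibroblasts. Their part in the other results was not tested, beyond the cells without any such transcript described above.

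Against PITX1+ skin fibroblasts, 47 genes were higher (14.8%) and 108 lower (34.1%) in buccal ones, 155 of 317 (48.9%). Both comparisons use the same 7 buccal sections, so they are not independent. *Igf2* had a log2 fold change of 3.27 (SE 0.45, edgeR adjusted p = 8.05e-05), *Angptl1* one of 3.74 (SE 0.50, adjusted p = 7.82e-05), *Mmp14* one of -2.27 (SE 0.29, adjusted p = 7.82e-05) and *Cyp26b1* one of -3.50 (SE 0.53, adjusted p = 0.000158). Among the 18 named genes, *Igfbp4*, *Cebpb* and *Fgfr4* did not pass. *Cebpb* had a log2 fold change of 1.59 (SE 0.88, edgeR adjusted p = 0.147) and *Fgfr4* one of -0.69 (SE 0.48, edgeR adjusted p = 0.253). *Igfbp4* was at 3507, 6991, 10811 and 7303 CPM in PITX1+ 1 to 4, between Control and buccal levels in all but PITX1+ 3, which lay within the buccal range, and did not pass (log2 fold change 0.67, SE 0.29, edgeR adjusted p = 0.0701). *Igfbp5* and *Ptch1*, which did not pass against Control skin, did so here, with *Igfbp5* higher in buccal fibroblasts (log2 fold change 2.58, SE 0.44, edgeR adjusted p = 0.000465) and *Ptch1* lower (log2 fold change -1.80, SE 0.39, edgeR adjusted p = 0.00237). With the slide as a random block, *Igf2* and the keratin gene *Krt4* passed in this comparison.

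The outlines of the cells differed as well. The median area assigned to a fibroblast was 386 ± 51.9 µm² (SD, n = 3) in Control skin and 167 ± 15.5 µm² (SD, n = 7) in buccal mucosa, 219 µm² lower, with no overlap (two-sided exact permutation test over sections, p = 0.0167, the smallest that 3 sections against 7 allow, adjusted p = 0.0333 over the 2 areas tested). In PITX1+ skin the medians were 124, 132, 201 and 279 µm², which lie on both sides of the buccal range of 138 to 186 µm² and all below the Control sections, so the contrast is with Control skin and not with all skin. The remaining cells of the sections had median areas of 164 to 178 µm² in Control skin and 98.2 to 279 µm² in buccal mucosa. How the outlines were drawn is not given in the sources used here, and its part in the difference was not tested. The nucleus was 19.1 ± 0.870 µm² (SD, n = 3) in Control and 19.5 ± 1.86 µm² (SD, n = 7) in buccal fibroblasts, and this difference of 0.366 µm² did not pass (exact permutation p = 0.8, adjusted p = 0.8).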

How the data were processed

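Xenium output of 4 slides was used as deposited: per the file headers, transcripts carry a quality score, a position and a cell, and cells carry counts of transcripts without normalization, with areas in µm². Assay and segmentation software versions are not given in the sources used here. Only transcripts scored 20 or more entered the sums, cells within 100 µm were chained into sections of at least 2000 cells, and fibroblasts were summed per section. No doublet caller was run. Any pair of slides shared 1 to 7 cell names.

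Sums of Control, PITX1+ and buccal sections were fitted together in edgeR 4.0.16 (R 4.3.3; TMM scaling and the quasi-likelihood F test). Of 328 genes, the 6 of the rule were not tested, 5 fell below the expression filter and 317 were tested. SEs are the log2 fold change over the root of the F statistic. Alternatives were no TMM, scaling without the 6 genes, DESeq2 1.42.0, no gene filter, transcripts of any quality or over the nucleus, at least 5 rule or 20 transcripts, 10 to 50 transcripts, no marker of other cells, limma 3.58.1 with slide as a random block, and leaving out sections. The script was tested on simulated data. Areas were compared in Python 3.11.15 with scipy 1.17.1.

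Members and lists were chosen with earlier results of these data known. Named genes were, for each direction, up to 12 with the largest log2 fold change past 0.05 that are in none of the lists of other cells (which hold no pigment cell markers), whose sections do not overlap and whose level is above that of the remaining cells, genes the study names for fibroblasts, and abundant members of each list, besides members named for short counts. Some named genes are not reported here.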

Additional observations from a re-analysis of the deposited data

Results flagged for a closer look

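In Buccal 3, markers of other cells gave 10.3% of fibroblast transcripts, below the other 6 buccal sections by more than their spread allows at the 95% level of Dixon's test. It was the only 1 of 24 measures tested over the 7 buccal sections, the levels of the 18 named genes and 6 properties of the sections, in which a section stood out in this way, and chance flags about 1 in 20. The cause was not tested. Without Buccal 3, 142 genes differed between buccal and Control skin fibroblasts.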

How the results depend on the processing

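Across 28 alternatives, none of the 18 named genes changed direction in any in which it could be tested (24 for *F10*, 27 or 28 for the others). The count of 135 genes changed between buccal and Control skin fibroblasts, and of 155 against PITX1+ skin, became 67 and 90 in cells with 10 to 50 transcripts (245 genes tested), 10 and 23 in cells with no transcript of the other-cell lists (107), 0 and 2 with the slide as a random block (317), and 58 and 74 in cells with at least 10% rule transcripts (249, chosen after seeing the data). The last setting kept 57 to 148 of 152 to 1567 chosen cells in a buccal section. In a Control section it kept 1574 to 2780 of 2100 to 3180, so the rule chose unlike cells in the tissues by this measure. There *Cebpb*, *Retnla*, *Bmpr1a*, *Cebpg*, *Tsc22d1*, *Bmp2* and *Bmp4* lost the call and 10 named genes kept it. Leaving out one section gave 73 to 149 and 114 to 163. Without any one Control section the cell area difference lay between -244 and -192 µm², where 2 sections against 7 cannot reach the threshold (smallest adjusted p 0.111). The nucleus area difference was -0.778 µm² with at least 20 transcripts and -0.116 to 0.731 µm² without one section. Of genes that did not pass, *Ptch1* and *Igfbp5* changed sign. *Ptch1* was at 0.18 on the log2 scale without TMM, 0.082 scaled without the rule genes, 0.34 with no gene filter, 0.49 with any quality score, 0.43 over the nucleus, 0.0070 with at least 20 transcripts, 0.40 without other-cell transcripts and -0.33 to 0.36 without one section. *Igfbp5* was at -0.21 with 10 to 50 transcripts, -0.58 without other-cell transcripts and -0.0033 with at least 10% rule transcripts. Of genes that passed and are named above, *Igfbp2* was at 0.036 with the slide block, *Ccl8* at -3.01 to 0.094 without one section and *Ppara* at -0.53 with 10 to 50 transcripts and -0.26 with at least 10% rule transcripts. Among all 135 genes, 2 changed sign with 10 to 50 transcripts, *Ppara* among them. A further 2 did so without other-cell transcripts and 1 with any quality score, none of them *Igfbp2*, *Ccl8* or *Ppara*. The causes were not tested. Sections carry replicate numbers from their order only. No paired analysis was possible because no number ties a buccal section to a Control section. Buccal 6, with 152 cells and 10662 transcripts, limits the precision of sparse genes.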
